A study of Mus musculus with 8 samples.

Results

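The 4 of 8 arrays that carried RNA of control-transfected mSCC-20 cells, labelled miR_NC, were used to describe which genes this squamous carcinoma line expresses and which gave no signal. mSCC-20 is a cutaneous squamous cell carcinoma line of the mouse, from the FVB/N strain, and the study as a whole added the microRNAs miR-193b-3p or miR-365a-3p to it. Of 39429 gene probes on the array, 19541 were well above background on all 4 control arrays, where "well above background" is the scanner software's own flag for a spot clearly brighter than its surroundings. By gene, 12380 of 22440 genes with a current symbol had at least 1 such probe (55.2%), 7211 had none on any control array (32.1%), and the other 2849 (12.7%) fell between. On both 0.2 arrays 12488 genes had signal (55.7%), and on both 0.6 arrays 13832 (61.6%), sets that are described next.

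The control arrays formed a pair of sets. Controls 1 and 2 carried an amount label of 0.2 µg and lay on slides 1 and 2, the first of which also held a miR-193b array. Controls 3 and 4 carried an amount label of 0.6 µg and lay together on slide 4 with the miR-365a arrays. The labels do not say what was weighed (RNA or transfected oligonucleotide), and they do not say whether arrays of a set came from separate cultures. The p-values between sets therefore measure the spread between arrays only, estimated with the microRNA arrays in the fit. The 4 control arrays limit the precision. All 4 RNA samples had an integrity number of 10, and all were labelled with Cy3 in a single colour. No tissue, animal or untransfected culture enters these data, so every level is that of one cultured line after a control transfection.

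Squamous carcinomas arise from keratinocytes, the cells of the stratified skin epithelium. In that epithelium basal cells divide on the basement membrane, hold to it through hemidesmosomes and fill with filaments of the keratin pair Krt5 and Krt14, and the transcription factor Trp63 maintains this basal state. Cells that leave the basal layer switch to Krt1 and Krt10 and then build a cornified envelope from loricrin, involucrin and small proline-rich proteins, whereas wounded, cultured and malignant keratinocytes use Krt6, Krt16 and Krt17 in place of that programme.

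Levels below are log2 processed signals minus the array's own 75th percentile over gene spots, so that 0 is a bright probe and the probes without signal lie near -7 to -9. The lowest level flagged well above background was -5.46 and -5.65 on controls 1 and 2. On controls 3 and 4 it was -6.46 and -6.20, so a dim level between these could be flagged on the 0.6 arrays only. A percentile gives the place of a gene's brightest probe among the 22440 genes of an array, averaged over the 4 arrays. Probes differ in how strongly they bind, so a percentile ranks signals and does not order transcripts. The spread between probes of 1 gene shows how much: among 4882 genes with several probes and signal on all 4 arrays, the brightest and dimmest probe differed by a median of 3.28 on the log2 scale, and 942 of them (19.3%) also had a probe with signal on no control array. Olfactory, vomeronasal and trace amine receptor genes, a reference chosen after values were seen, were on all 4 arrays for 23 of 1369 genes (1.68%), 2 of them above the 75th percentile.

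Each of the 5 genes that mark the line was well above background on all 4 arrays. So were 55.2% of all genes, and passing the flag is therefore only a weak check of the labelled cell type. Krt5, the basal type II keratin, gave the highest mean level of all genes, at 8.01 and 8.13 on the 0.2 arrays and 8.34 and 8.46 on the 0.6 arrays. A second Krt5 probe read 3.45, 3.10, 3.81 and 4.00, well above background but far dimmer. Krt14, its type I partner, stood at 7.40, 7.38, 7.64 and 7.74 in array order, a mean percentile of 99.7. Ccnd1, the cyclin that carries cells out of G1, read 4.58, 4.67, 4.50 and 4.89 (percentile 96.7). The adhesion receptor Cd44, which binds hyaluronan, read 3.00, 3.06, 2.98 and 3.72 (percentile 91.6), and all 4 of its probes had signal. Trp63 read 1.82, 2.33, 2.22 and 1.91 (percentile 85.4), also with 4 of 4 probes. None of the 5 passed the test between the sets described further on, with adjusted p-values from limma of 0.181 for Krt5, 0.138 for Krt14, 0.991 for Trp63, 0.832 for Ccnd1 and 0.348 for Cd44.

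In the coordinates of the array design, build mm9, the brightest Krt5 probe lies at chr15:101537514-101537573 and that of Krt14 spans chr11:100064683-100065288. The brightest probes of the other markers lie at chr16:25892012-25892071 for Trp63, chr7:152116202-152116261 for Ccnd1 and chr2:102651398-102651457 for Cd44. Whether each falls in a coding exon or an untranslated region was not determined, because no annotation of that build was used.

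**Figure D1:**
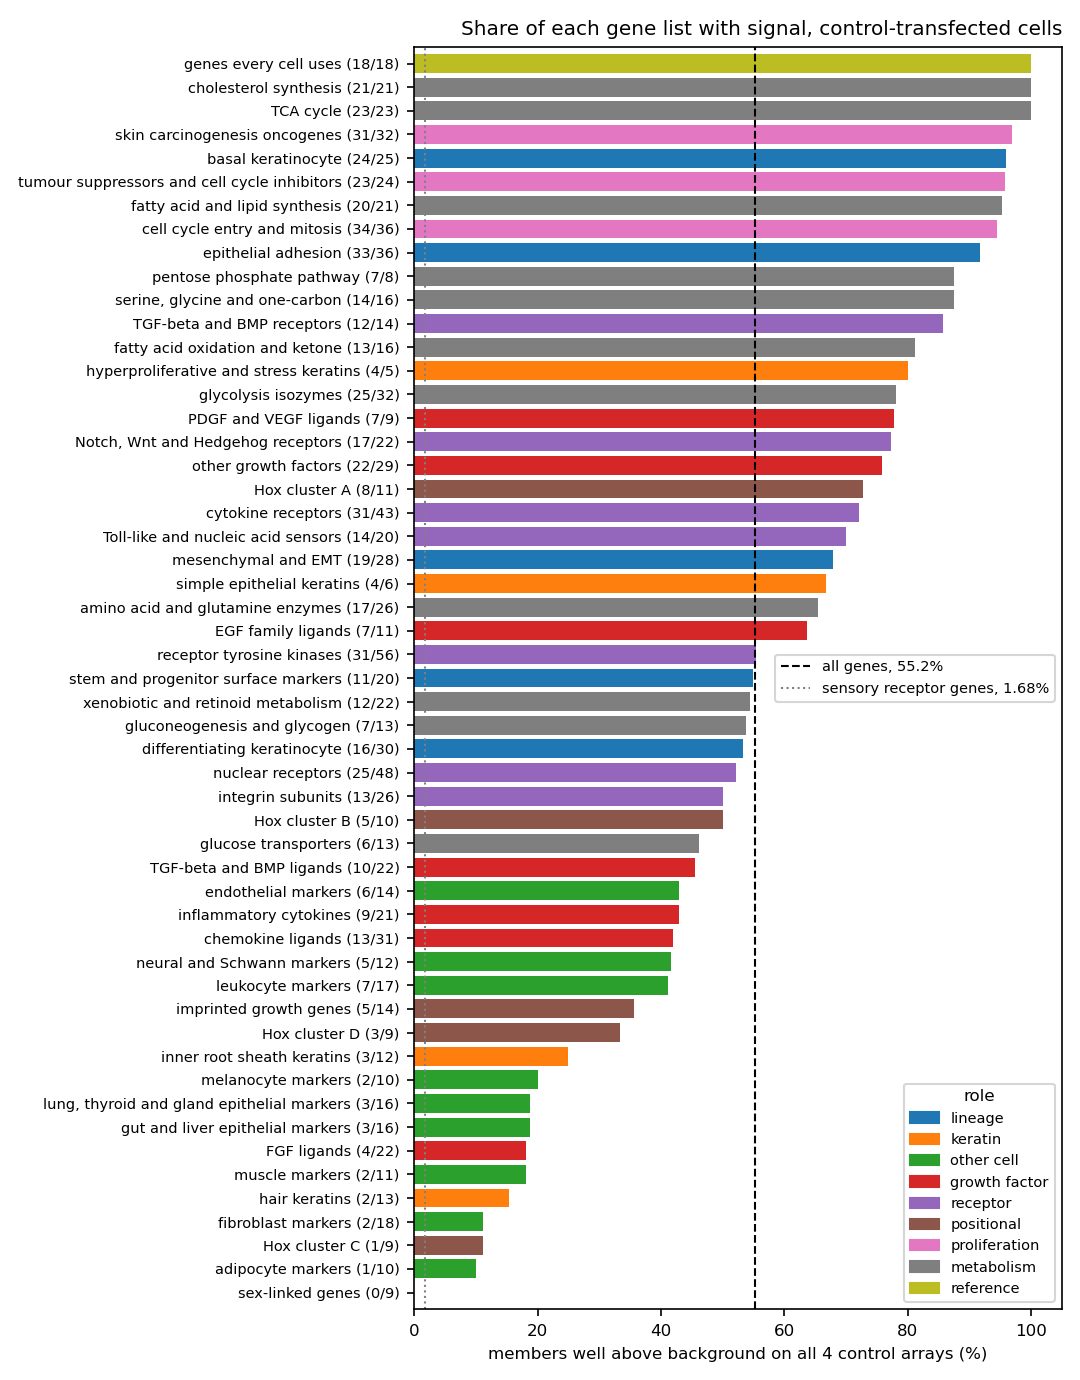
Share of each gene list (percent of the list's genes with a probe, horizontal axis) that was well above background on all 4 control arrays, with the background share of 55.2% over all 22440 genes marked. The basal keratinocyte list stands at 96.0% and the fibroblast list at 11.1%.

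Beyond those markers, 24 of 25 genes of the basal keratinocyte list were on all 4 arrays (96.0%, against 55.2% of all genes). The anchoring machinery had signal: Lamb3, a chain of laminin-332, read 3.48, 3.39, 3.29 and 4.22. Col17a1, the hemidesmosomal collagen, read 4.67, 4.75, 4.83 and 5.26. The integrin chains that bind this laminin were present together, Itga6 at 5.34, 5.55, 4.84 and 5.08 and Itgb4 at 2.66, 2.89, 3.10 and 3.44. The single member of the list without signal was Sox2, a stem cell transcription factor, at -7.22, -7.47, -8.37 and -8.14.

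Cell adhesion genes followed the same pattern, with 33 of 36 on all 4 arrays (91.7%). Perp, a desmosomal protein and p63 target, read 5.13, 5.19, 5.64 and 5.83, and the plakophilin Pkp1 read 4.00, 4.05, 4.90 and 5.19. F11r, a tight junction molecule, was even across arrays at 3.47, 3.43, 3.33 and 3.43. Cdh1, which encodes E-cadherin, was present but not bright, at -1.04, -1.06, -1.12 and -0.44, and Epcam read 1.49, 1.37, 0.85 and 1.11; both were picked out after their values were seen. Cldn1 and Cldn6, tight junction claudins, had no signal.

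Of the keratinocyte differentiation genes, 16 of 30 were on all 4 arrays (53.3%), close to the 55.2% of all genes. On both 0.6 arrays 22 had signal and on both 0.2 arrays 16, beside 61.6% and 55.7% of all genes. Genes of the suprabasal programme without signal were Krt1, Krt77, Flg2, Hrnr, Dsc1 and Lce1a1; Krt1, the first suprabasal keratin, read -7.32, -6.90, -8.33 and -8.10. Its partner Krt10, picked out after its values were seen, was dim at -3.69, -3.63, -3.79 and -3.41, and 1 of its 2 probes had signal. Cornified envelope genes were divided, with Cnfn at -3.08, -3.64, 3.06 and 1.93 and Cdsn without signal on the 0.2 arrays. Sprr1b, a small proline-rich protein, read 5.10, 4.87, 6.41 and 6.20, and Sbsn, suprabasin, read 5.58, 5.09, 6.04 and 5.88. Ivl and Lor, involucrin and loricrin, also named after their values were seen, had signal at 1.50, 0.94, 0.69 and 0.87 and at 1.55, 0.71, 1.20 and 0.69. Filaggrin (Flg) and Znf750 had no named probe here and were not analysed.

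**Figure D2:**
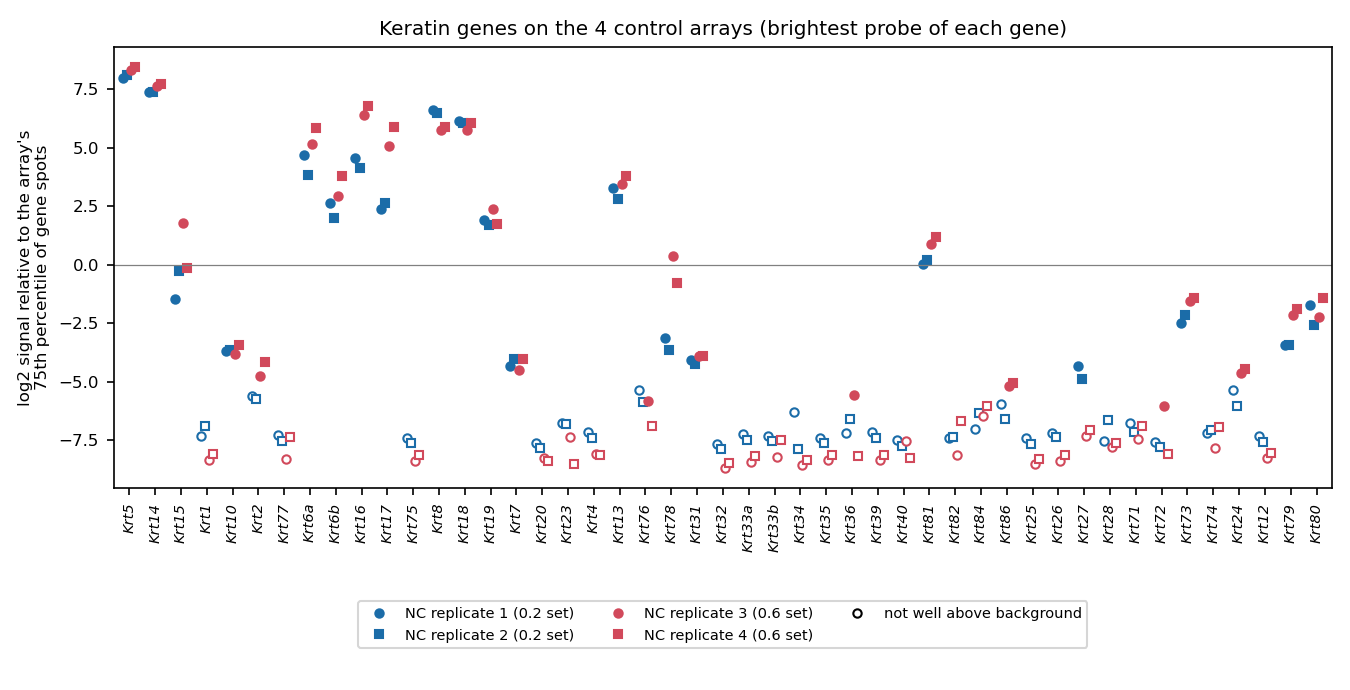
Level of the keratin genes on each of the 4 control arrays (log2 processed signal minus the array's 75th percentile), with the 0.2 and 0.6 arrays in separate colours and probes not well above background drawn open. Krt5 and Krt14 lie at the top with all arrays above 7. Both 0.6 arrays sit over both 0.2 arrays for Krt16, Krt17 and Krt78, and also for Krt5, Krt14, Krt6a, Krt6b and Krt13. Over all names tested the arrays of the sets did not overlap for 59.9%.

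Among the keratins, the stress group was present with 4 of 5 members. Krt6a, Krt6b, Krt16 and Krt17 are induced in wounds and in culture; Krt6a read 4.69, 3.86, 5.16 and 5.86, and Krt6b read 2.65, 2.02, 2.93 and 3.79, while Krt75 of hair follicles had no signal. Simple epithelial keratins, normally those of single-layered epithelia, were bright too: Krt8 read 6.63, 6.49, 5.75 and 5.90, and its partner Krt18 read 6.14, 6.07, 5.79 and 6.08 (percentile 98.7). Krt19 was lower at 1.91, 1.70, 2.39 and 1.73, Krt7 dim at -4.33, -4.05, -4.49 and -4.03, and Krt20 and Krt23 had no signal.

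The mucosal keratin Krt13, a keratin of the oral and oesophageal lining, read 3.30, 2.81, 3.47 and 3.82, but only 1 of its 2 probes had signal on all 4 arrays. Its usual partner Krt4 had none. Hair shaft keratins were on all 4 arrays for 2 of 13 genes (15.4%; Krt31 and Krt81) and keratins of the inner root sheath list for 3 of 12 (25.0%; Krt73, Krt79 and Krt80). So Krt5, Krt14, Krt6a, Krt16, Krt8 and Krt18 all lay above the 96th percentile, and no hair or inner root sheath keratin lay above the 75th.

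Genes of mesenchymal cells were mixed. Of 28 genes linked to epithelial-mesenchymal transition, 19 were on all 4 arrays (67.9%). Sparc, a secreted matrix protein, read 6.39, 6.90, 6.93 and 6.98. The receptor kinase Axl read 3.90, 4.00, 3.66 and 3.62, S100a4 read 4.10, 4.34, 3.68 and 3.48, and the transcription factor Snai2 read 2.11, 2.62, 2.06 and 2.23. Zeb2, Cdh11 and Lox had no signal. Vim, the intermediate filament gene of mesenchymal cells, was well above background on both 0.2 arrays and on neither 0.6 array, as described with the other such genes below.

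Markers of other cell types were present in shares from 10.0% to 42.9% of a list, each below the 55.2% of all genes. Fibroblast markers were on all 4 arrays for 2 of 18 genes (11.1%; Pdgfra and Mfap5), and Col1a1, Col3a1, Pdgfrb, Dcn, Lum and Fap had no signal. Summed over the list, fibroblast genes made up 0.00164% and 0.002% of all gene signal on the 0.2 arrays and 0.000445% and 0.000555% on the 0.6 arrays. Mfap5, singled out after values were seen, alone gave 86.9% and 89.6% of that sum on the 0.2 arrays and at most 25.6% on the 0.6 arrays. The other genes of the list made up 0.000215% and 0.000208% of all gene signal on the 0.2 arrays against 0.000331% and 0.00045% on the 0.6 arrays. On the 0.6 arrays 7 and 6 genes of the list were well above background, against 2 and 2 on the 0.2 arrays. Of all genes, 61.6% had signal on both 0.6 arrays and 55.7% on both 0.2 arrays. The flag reached lower levels on the 0.6 arrays, and its part in this count was not tested. Leukocyte markers were on all 4 arrays for 7 of 17 genes (41.2%), among them the T cell gene Cd3e, Csf1r, Cd68 and Coro1a, with Adgre1, Lyz2, Tyrobp, Laptm5, Cd52 and Kit without signal and Ptprc, the pan-leukocyte CD45 gene, on 1 array only. Itgam had the brightest leukocyte probe, at 1.29, 1.69, 2.14 and 2.47, yet only 1 of its 3 probes had signal on all 4 arrays.

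Endothelial markers were present for 6 of 14 genes (42.9%; Pecam1, Kdr, Tie1, Esam, Egfl7 and Flt1), while 6 (Cdh5, Tek, Emcn, Cldn5, Sox18 and Erg) had no signal. Egfl7 read 2.67, 3.05, 3.12 and 3.03. Kdr, the VEGF receptor, read 0.58, 0.08, 1.72 and 2.08 on its brightest probe, and its other probe was on no array. Melanocyte markers were present for 2 of 10 genes, with Tyrp1, Dct and Sox10 without signal and Mitf at 0.35, 0.58, 0.50 and 0.65. Muscle markers were present for 2 of 11, led by Tnni2, a fast-muscle troponin, at 3.51, 3.45, 3.81 and 2.97; Des, Myod1 and Myog had no signal. Adipocyte markers were present for 1 of 10 genes and neural or Schwann cell markers for 5 of 12. Liver and gut epithelium was represented by 3 of 16 genes (Lgr5, Afp and Foxa1) and lung, thyroid and gland epithelium by 3 of 16 (among them Gata3 and Aqp5). In bulk RNA a few cells of a type and little RNA per cell cannot be told apart.

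**Figure D3:**
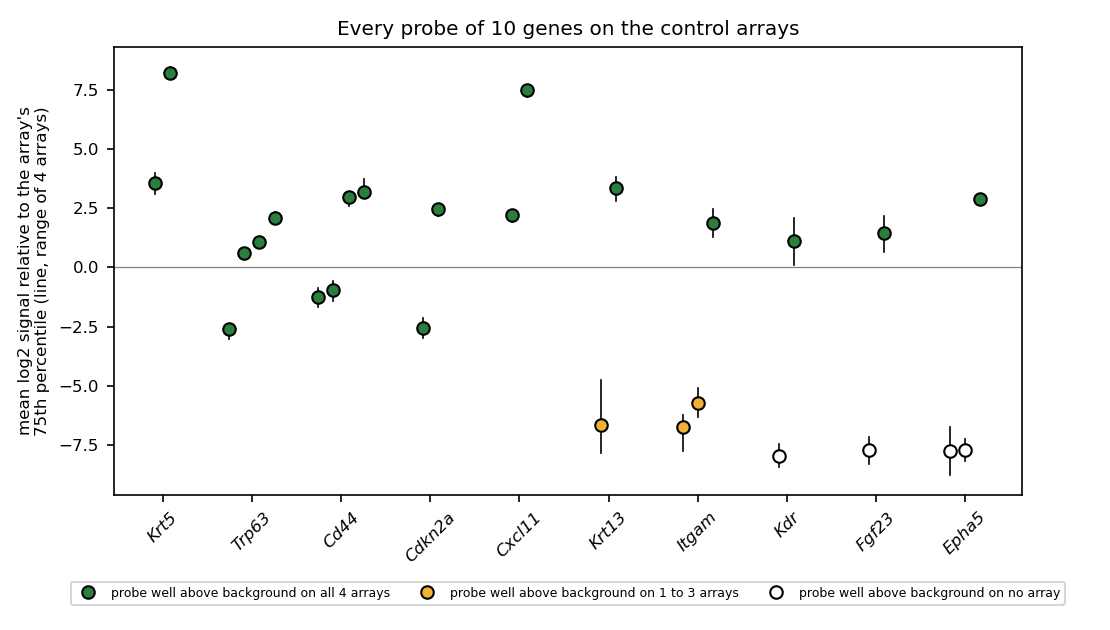
Mean level over the 4 control arrays of every probe of 10 genes with several probes, coloured by whether the probe was well above background on all 4, on 1 to 3 or on none, with a line for the range over the arrays. Probes of Krt5, Trp63, Cd44, Cdkn2a and Cxcl11 all had signal, whereas Krt13 and Itgam had a probe with signal on some arrays only, and Kdr, Fgf23 and Epha5 a probe with none.

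Growth factor genes were present in shares that ran from 18.2% to 77.8% by family. Of the EGF family ligands, which activate the receptor Egfr and its relatives, 7 of 11 were on all 4 arrays (63.6%). Nrg1 was the brightest, at 4.28, 3.77, 3.52 and 4.06. Ereg read 0.73, 0.81, 0.46 and 1.00, and Epgn read 0.59, 0.52 and 0.53 on controls 1 to 3 and 1.66 on control 4. Tgfa and Areg were dimmer, and Nrg3 had no signal. Of the FGF ligands only 4 of 22 were on all 4 arrays (18.2%), and Fgf1, Fgf2, Fgf3, Fgf4, Fgf5 and Fgf7 had no signal. Each of the 4 present (Fgf6, Fgf18, Fgf22 and Fgf23) had signal on all 4 arrays from 1 of its 2 probes only; Fgf23, a hormone of phosphate balance, read 0.66, 1.17, 1.82 and 2.17.

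PDGF and VEGF ligands were present for 7 of 9 genes (77.8%). Pdgfa, a mitogen for fibroblasts, read 4.31, 4.75, 5.06 and 4.67, whereas Vegfa, the main endothelial growth factor, read -1.34, -1.36, -0.74 and -1.50. Among TGF-beta and BMP ligands 10 of 22 were present (45.5%). Bmp1, a protease rather than a true BMP, read 2.79, 2.85, 2.47 and 2.49, and the activin subunit Inhba read 1.77, 1.39, 1.08 and 2.66. Tgfb1 read 0.33, 0.21, 0.50 and 0.61, and Bmp2 to Bmp6 were without signal. Of the other growth factors 22 of 29 were present (75.9%), led by Angptl4 at 3.90, 3.45, 3.64 and 4.50. Hgf, Igf2, Ntf3, Angpt1, Ptn and Il6 had no signal.

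Chemokine ligands, which draw in leukocytes, were on all 4 arrays for 13 of 31 genes (41.9%). Cxcl11, a ligand of the T cell receptor Cxcr3, read 7.19, 7.65, 7.42 and 7.66 (percentile 99.7), with both of its probes well above background. Of the other Cxcr3 ligands, Cxcl9 had no signal and Cxcl10 read -3.53, -1.78, -5.91 and -5.60. Neutrophil-attracting chemokines were bright, with Cxcl5 at 5.91, 5.75, 5.85 and 6.62 and Cxcl1 at 3.68, 4.50, 4.15 and 4.38. Ccl2, which attracts monocytes, read 5.19, 5.37, 4.20 and 4.34. Cxcl12, Cxcl13, Cxcl14, Cxcl15 and Ccl3 had no signal. Inflammatory cytokines were present for 9 of 21 genes (42.9%), with Il1a, the keratinocyte interleukin, at 2.44, 1.90, 1.12 and 1.41. Cytokines of T cells and myeloid cells, Il4, Il10, Il12b, Il13, Il17a and Ifng, were without signal.

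On the receptor side, 31 of 56 receptor tyrosine kinases were on all 4 arrays (55.4%), a share near the background. The Eph receptors Ephb3, at 4.35, 4.47, 4.50 and 4.54, and Epha2, at 3.84, 3.93, 3.90 and 4.20, were the brightest together with Axl. Egfr, picked out after its values were seen, read 0.57, 0.19, 0.04 and 0.84 with 3 of 3 probes, and Erbb2, likewise, read 0.13, 0.17, 0.32 and 0.02. Erbb4, Kit, Pdgfrb, Mertk, Insrr and Flt4 had no signal. Receptors of the TGF-beta and BMP family were present for 12 of 14 genes (85.7%), with Tgfbr2 at 3.76, 3.30, 3.33 and 3.82, and Acvr1c and Bmpr1b without signal.

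Cytokine receptors were present for 31 of 43 genes (72.1%). Csf3r, the receptor for granulocyte colony-stimulating factor, read 5.54, 5.71, 5.61 and 5.42 (percentile 98.1) on the array's only probe for it. Tnfrsf12a, the TWEAK receptor, read 4.91, 4.46, 4.34 and 4.87. Lymphocyte receptors Il2ra, Il2rb and Il7r had no signal. Notch, Wnt and Hedgehog receptors were present for 17 of 22 genes (77.3%): Smo read 3.69, 3.71, 3.91 and 3.73, and Notch1 read 0.64, 0.68, 0.78 and 0.12. Toll-like receptors and nucleic acid sensors were present for 14 of 20 genes (70.0%), led by Ddx58, the RNA sensor RIG-I, at 1.72, 2.60, 2.02 and 2.42, with Nlrp3 and Aim2 without signal.

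Nuclear receptors were present for 25 of 48 genes (52.1%). The glucocorticoid receptor Nr3c1 read 1.92, 2.18, 2.11 and 2.06, the oxysterol receptor Nr1h2 read 3.12, 3.06, 3.18 and 3.20, and the retinoic acid receptor Rarg, the main one of skin, read 1.80, 1.90, 2.24 and 2.02. Esr1, Pgr and Thrb had no signal, in the case of Esr1 on any of 4 probes. Integrin subunits were present for 13 of 26 genes (50%). Stem and progenitor surface markers were present for 11 of 20, with Ly6a (Sca-1) at 5.08, 5.16, 5.31 and 5.30, Plet1 at 4.84, 4.74, 4.30 and 5.23 and Procr at 4.25, 4.14, 4.29 and 4.84. Lgr6, Aldh1a3, Lhx2, Gata6 and Cd200 had no signal.

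Genes of proliferation were almost all present. Of 36 cell cycle genes 34 were on all 4 arrays (94.4%), with a median percentile of 92.4 against 72.3 for all genes on all 4 arrays. Birc5, which encodes survivin, read 5.22, 5.58, 5.54 and 5.27; the G1 kinase Cdk4 read 4.90, 5.13, 5.23 and 5.08; and Rrm2, a subunit of ribonucleotide reductase, read 5.15, 5.32, 5.05 and 4.74. Ccne2 and Aurkb had no signal on their single probes. Tumour suppressors and cell cycle inhibitors were present for 23 of 24 genes (95.8%). Cdkn2a, which encodes p16 and p19ARF, read 2.18, 2.51, 2.56 and 2.70 with both probes, and the atypical cadherin Fat1 read 4.21, 3.88, 3.90 and 4.42. Oncogenes of skin carcinogenesis were present for 31 of 32 genes (96.9%, Mycl without signal), with Hras at 3.74, 3.77, 4.22 and 4.09, Akt1 at 4.41, 4.45, 4.64 and 4.72 and Bcl2l1 at 3.21, 3.25, 3.10 and 3.22. Signal from a gene does not tell whether its sequence carries a mutation.

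Energy metabolism was represented throughout. All 23 genes of the tricarboxylic acid cycle list were on all 4 arrays (100%), with Mdh2 at 6.92, 7.17, 7.06 and 7.09 and citrate synthase, Cs, at 6.10, 6.18, 5.97 and 5.89. Glycolysis isozymes were present for 25 of 32 genes (78.1%) and divided by isozyme. Ldha read 7.16, 7.46, 7.64 and 7.68, Gapdh 7.67, 7.83, 7.87 and 7.93 with 7 of 7 probes, Eno1 6.33, 6.30, 6.50 and 6.47, and Gpi1 6.32, 6.28, 6.34 and 6.30. The isozymes Pklr of liver and red blood cells, Hk3 and the testis form Pgk2 had no signal. The same held for glucose entry, where Slc2a1 read 3.67, 4.10, 4.16 and 3.71 and Slc2a2 and Slc2a3 had no signal, with 6 of 13 transporters present (46.2%).

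Of the list of glucose synthesis and glycogen enzymes, Pck1, Fbp1, Fbp2, G6pc2, Gys2 and Pygl were without signal, and 7 of 13 genes were present (53.8%). G6pc1 had no named probe and was not analysed. The pentose phosphate pathway was present for 7 of 8 genes (87.5%; Tktl1 without signal), with Taldo1 at 5.65, 5.73, 5.72 and 5.84. Serine and one-carbon enzymes were present for 14 of 16, among them Phgdh, the entry enzyme of serine synthesis, at 4.36, 4.30, 4.51 and 4.36, Psat1 at 4.98, 5.22, 5.41 and 5.06, and Mat2a at 5.34, 5.18, 5.42 and 5.48; the liver isozyme Mat1a had no signal. Amino acid enzymes were present for 17 of 26 (65.4%), with Asns at 5.44, 5.67, 5.43 and 5.46 and Odc1, the first enzyme of polyamine synthesis, at 4.71, 4.61, 4.48 and 4.51. Otc, Cps1, Hpd, Tdo2 and Ido1 had no signal.

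All 21 cholesterol synthesis genes were on all 4 arrays (100%), with Fdps at 5.12, 5.07, 5.18 and 5.10, and 20 of 21 genes of fatty acid and lipid synthesis (95.2%), with Scd2, a desaturase, at 5.15, 5.07, 5.48 and 5.04. Fatty acid oxidation was present for 13 of 16 (81.2%), and Ppargc1a had no signal. Of the xenobiotic and retinoid genes 12 of 22 were present (54.5%), led by Gsto1 at 7.34, 7.22, 7.27 and 7.45, while Cyp1a1, Cyp1a2, Cyp1b1, Cyp26a1 and Lrat had no signal. All 18 genes used by every cell were present. Among the 30 highest signals 15 were genes of ribosomal proteins, joined by Krt5, Actb, S100a6 and Tuba1b.

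Genes of position and sex gave a separate picture. Hox genes, which record the position of a cell along the body axis, were on all 4 arrays for 8 of 11 genes of cluster A (72.7%), 5 of 10 of cluster B (50%), 1 of 9 of cluster C (11.1%) and 3 of 9 of cluster D (33.3%). Hoxa7 read 1.38, 2.10, 1.75 and 1.03. The genes at the 5' end of clusters A and D, Hoxa11, Hoxa13, Hoxd10, Hoxd11, Hoxd12 and Hoxd13, had no signal. The Y-linked genes Ddx3y, Kdm5d, Eif2s3y, Uty and Zfy2 had no signal on any array, and neither had Xist, the RNA that coats the inactive X chromosome, at -7.21, -7.40, -8.42 and -8.16. Of the imprinted growth genes 5 of 14 were present (35.7%); Igf2, Dlk1, Peg3, Peg10, Grb10 and Zim1 were not.

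**Figure D4:**
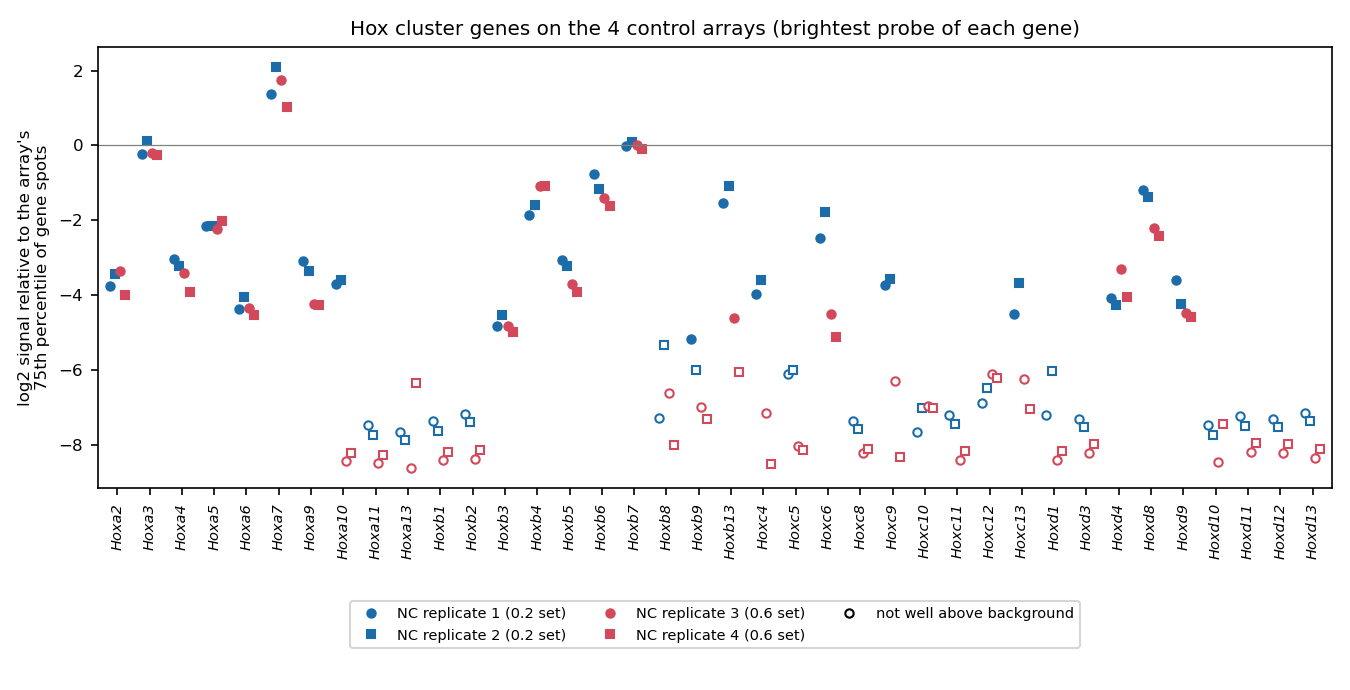
Level of Hox genes on the 4 control arrays, by cluster and position in the cluster (log2 processed signal minus the array's 75th percentile), drawn open where not well above background. Cluster A shows signal on all 4 arrays from Hoxa2 to Hoxa9, and Hoxa10, Hoxc4, Hoxc9 and Hoxc13 have it on both 0.2 arrays and neither 0.6 array.

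Promoter letters are shown for genes at the extremes of this profile, as the 250 bases before the RefSeq start (build GRCm38.p6, 5' to 3' on the gene's strand). Capitals mark TATAAA between 45 and 10 bases before the start and TGANTCA, the letters bound by AP-1, on either strand. In TGANTCA, N stands here for C or G only. The 2 motifs do not overlap. Krt5 (chr15:101712906-101713155, minus strand) is the brightest gene, Sox2 (chr3:34649745-34649994, plus strand) the basal list member without signal. Sprr1a (chr3:92485882-92486131, minus strand), Vim (chr2:13574061-13574310, plus strand) and Mgmt (chr7:136894336-136894585, plus strand, the first of 2 starts in the table) are genes that differed between the sets.
Krt5: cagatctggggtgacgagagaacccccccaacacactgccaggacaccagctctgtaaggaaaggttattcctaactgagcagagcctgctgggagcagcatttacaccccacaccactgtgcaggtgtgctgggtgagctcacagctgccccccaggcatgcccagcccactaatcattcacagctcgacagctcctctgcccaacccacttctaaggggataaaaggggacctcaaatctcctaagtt
Sox2: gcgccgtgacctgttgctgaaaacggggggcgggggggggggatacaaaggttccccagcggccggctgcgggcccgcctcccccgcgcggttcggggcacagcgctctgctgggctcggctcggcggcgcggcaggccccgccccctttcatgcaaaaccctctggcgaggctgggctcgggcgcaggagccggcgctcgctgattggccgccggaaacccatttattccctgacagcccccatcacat
Sprr1a: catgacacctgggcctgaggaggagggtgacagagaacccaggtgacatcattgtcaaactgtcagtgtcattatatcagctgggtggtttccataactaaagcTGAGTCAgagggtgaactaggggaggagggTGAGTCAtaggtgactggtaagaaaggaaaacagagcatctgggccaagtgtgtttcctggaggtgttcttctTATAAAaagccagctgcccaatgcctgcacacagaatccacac
Vim: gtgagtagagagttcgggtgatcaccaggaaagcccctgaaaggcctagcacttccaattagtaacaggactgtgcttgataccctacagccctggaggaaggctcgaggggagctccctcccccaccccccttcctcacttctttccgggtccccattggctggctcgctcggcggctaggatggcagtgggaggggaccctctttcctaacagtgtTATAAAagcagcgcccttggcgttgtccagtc
Mgmt: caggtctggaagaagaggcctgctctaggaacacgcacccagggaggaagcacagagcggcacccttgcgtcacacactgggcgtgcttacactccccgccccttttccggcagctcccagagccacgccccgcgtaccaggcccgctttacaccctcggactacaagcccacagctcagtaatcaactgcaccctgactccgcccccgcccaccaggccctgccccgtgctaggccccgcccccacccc

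The stretches differ in CG dinucleotides, the letters at which mouse DNA is methylated. Sox2, which gave no signal, has 27 of them, Mgmt 15, Vim 8, Krt5 2 and Sprr1a 0. Over all promoters the median was 16 for 9829 genes on all 4 arrays, 3 for 5548 genes on none and 10 for all 17548 genes with a promoter, so Krt5 lies below the median of its group and Sox2 above that of its own. TATAAA in its window was found in 1.6% of promoters of genes on all 4 arrays, 4.67% of those on none and 2.92% of all, and among the 5 shown it stands in Sprr1a and Vim. TGANTCA, with C or G as N, was found in 3.29%, 5.1% and 4.04%, and Sprr1a holds it at 2 places. A match is a description of letters only.

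The arrays of a set were more alike than arrays of different sets. Across 12380 genes, which are not independent replicates, levels correlated at 0.990 and 0.993 within the sets and at 0.974 to 0.980 between them. Of 12370 genes whose brightest probe was on all 4 arrays, those more than 2-fold apart numbered 244 (1.97%) between controls 1 and 2. They numbered 207 (1.67%) between controls 3 and 4 and 702 (5.68%) between the set means. The amount label, the slide and the scan coincide in these sets and cannot be told apart. The median local background was also 60.5 and 58 on the 0.2 arrays against 29 and 26 on the 0.6 arrays, and its part in the differences was not tested.

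The difference between the sets was tested gene by gene with limma over 15028 gene names well above background on all 4 control arrays, with the microRNA arrays in the fit to estimate the spread, and p-values adjusted by Benjamini-Hochberg. At an adjusted p of 0.05, 2286 names were called (15.2%): 1543 were higher on the 0.6 arrays (10.3%) and 743 lower (4.94%), and 661 (4.4%) were called with at least a 2-fold difference. The arrays of the sets did not overlap for 9002 names (59.9%). Centring on the array median instead of the 75th percentile moved the median difference from 0.07 to -0.09 and the split to 938 higher and 1250 lower, so a small difference in 1 direction depends on the centring. The total fell to 380 without control 4, to 1080 without control 1 and to 1143 without control 3. Of 153 called genes on the lists or among the largest differences, 42 kept their call under each of 14 alternatives, including every omission of 1 array; the genes given next without a further remark are among those 42.

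The 10 largest differences with a higher level on the 0.6 arrays were led by Defb14, Cnfn and, among genes whose calls held throughout, Stfa1, Tatdn2, Klhl22 and Sprr1a. Defb14, a beta-defensin secreted by skin, read -4.63 and -4.96 on the 0.2 arrays and 1.09 and 2.05 on the 0.6 arrays, a difference of 6.36 ± 0.32 (log2, SE; adjusted p from limma 0.000474). Cnfn, cornifelin of the cornified envelope, read -3.08 and -3.64 against 3.06 and 1.93, a difference of 5.85 ± 0.65 (adjusted p 0.00418). Sprr1a, also of the envelope, read 1.79 and 1.08 against 5.43 and 5.50, a difference of 4.03 ± 0.26 (adjusted p 0.000671). In all 3 genes both 0.6 arrays lay more than 3 units above both 0.2 arrays.

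Sprr2d, which lies in the same gene cluster on chromosome 3, read 0.62 and 0.72 against 4.45 and 4.60, a difference of 3.85 ± 0.15 (limma, adjusted p 0.000331), and Stfa1, a stefin that inhibits cysteine proteases, read -1.66 and -1.0 against 3.77 and 2.67. Endou read -1.78 and -1.50 against 2.26 and 2.06. The remaining genes of the 10 largest were Tatdn2 and Klhl22, by 4.07 and 4.03, and the predicted genes Gm10639 and Gm3776, whose calls were lost under 8 and 6 of the 14 alternatives. Over the differentiation list, 6 of 16 tested genes were higher and 0 lower, beside 10.3% higher and 4.94% lower over all names tested. The median difference was 0.59 against 0.07 over all names tested. Across the alternatives 3 to 7 genes of the list were higher and 0 or 1 lower. Besides Cnfn, Sprr1a and Sprr1b (by 1.32 ± 0.14, adjusted p from limma 0.00327), the 6 higher genes were Krtdap, Grhl1 and Lgals7. Each of these last lost its call under 5 or more alternatives, Krtdap among them without control 1, 2 or 3.

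Of the tested keratins, 2 of 4 of the stress group and 1 of 2 of the mucosal group were higher on the same arrays. So were 1 of 2 hair keratins (Krt81) and 2 of 3 of the inner root sheath list (Krt73 and Krt79). The calls of Krt81 and Krt73 were lost under 3 and 5 of the 14 alternatives, that of Krt79 without control 4 only. Over all names tested 10.3% were higher, and groups of 2 to 4 genes are too small for a share. Krt16 read 4.57 and 4.16 against 6.43 and 6.79, a difference of 2.24 ± 0.19 (limma, adjusted p 0.002). Krt17 read 2.37 and 2.66 against 5.08 and 5.91, by 2.98 ± 0.42 (adjusted p 0.00774, but 0.0514 without control 4). Krt78 read -3.13 and -3.63 against 0.40 and -0.76, by 3.20 ± 0.49 (adjusted p 0.0101). Krt6a and Krt6b did not pass, at 1.24 ± 0.36 (adjusted p 0.0573) and 1.02 ± 0.36 (0.0988), nor did the mucosal Krt13, at 0.59 ± 0.21 (0.0967). Krt8 fell by 0.74 ± 0.14, with an adjusted p of 0.0193; the call was lost in 5 of 14 alternatives, among them without control 1, 3 or 4, with an adjusted p of up to 0.0818.

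Junction genes included 8 of 33 tested that were higher and 3 that were lower, with a median difference of 0.34 (3 to 11 and 0 to 4 across the alternatives), beside 10.3% higher and 4.94% lower over all names tested. The claudin Cldn4 read -0.92 and -1.36 against 0.94 and 1.55, by 2.38 ± 0.25 (limma, adjusted p 0.00327), Cldn7 -0.18 and -0.77 against 1.31 and 1.64, by 1.95 ± 0.22 (adjusted p 0.00441), and the desmocollin Dsc2 -1.52 and -1.30 against -0.01 and 0.03, by 1.42 ± 0.18 (adjusted p 0.00541). Pkp1 was higher by 1.02 ± 0.16 (adjusted p 0.0111, but 0.0756 without control 4). The basal list had 3 of 24 higher (Cdh3, Dlx3 and Sfn, each with its call lost under several alternatives) and 0 lower, with a median of 0.25; in the setting with the fewest, none was called higher.

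**Figure D5:**
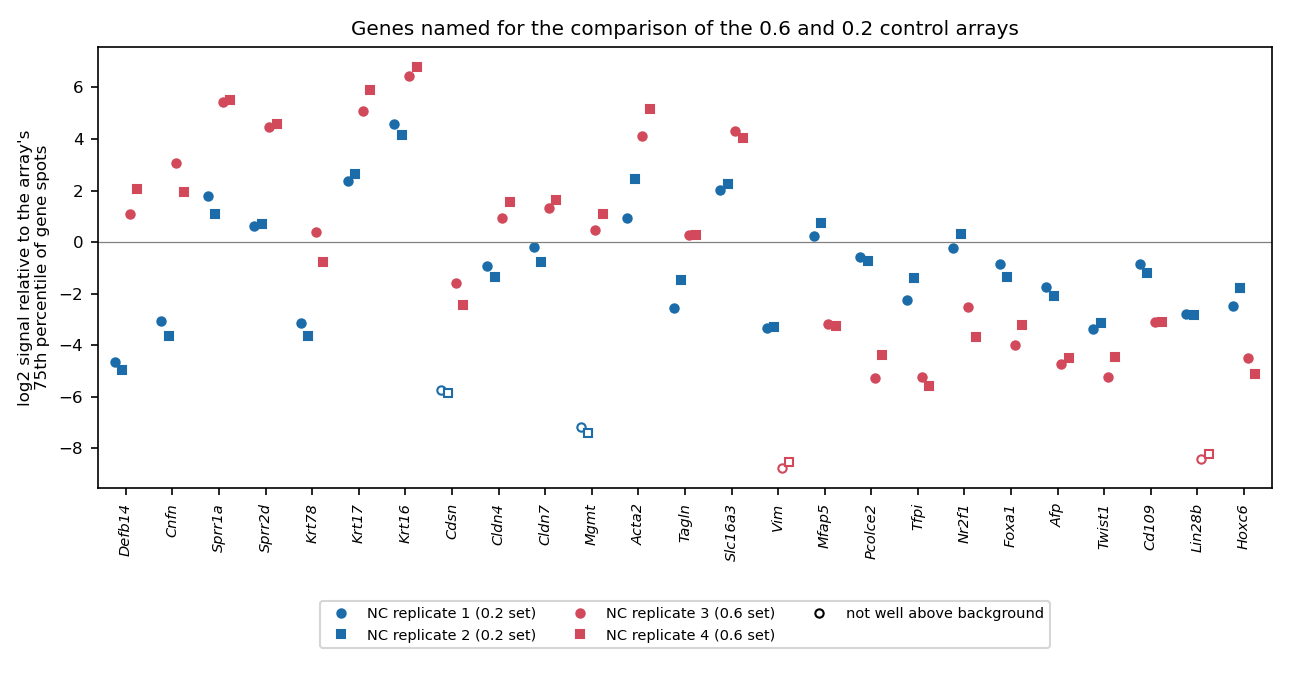
Levels of genes named for the comparison on each control array (log2 processed signal minus the array's 75th percentile), 0.2 and 0.6 arrays in separate colours, drawn open where not well above background. For each gene both arrays of one set lie on one side of both arrays of the other. The genes were chosen for a difference between the sets, so this is no separate result. Over all 15028 names tested the sets did not overlap for 59.9%. Defb14 shows the widest gap among genes with signal on all 4 arrays.

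The 10 largest differences with a lower level on the 0.6 arrays were led by Pcolce2, Mfap5 and Tfpi. Pcolce2, an enhancer of procollagen processing, read -0.60 and -0.72 against -5.28 and -4.37, a difference of -4.17 ± 0.43 (limma, adjusted p 0.00327). Mfap5, a microfibril protein of fibroblasts, read 0.25 and 0.75 against -3.16 and -3.24, by -3.70 ± 0.24 (adjusted p 0.000671). Tfpi, the inhibitor of the tissue factor pathway, read -2.24 and -1.38 against -5.22 and -5.57. The fibroblast list had a lower summed signal on the 0.6 arrays with Mfap5 and a higher one without it, as given above; Col1a1, Col3a1 and Pdgfrb had no signal in either set.

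Cd109, a membrane protein of basal keratinocytes and of carcinomas, read -0.85 and -1.21 against -3.11 and -3.10, by -2.08 ± 0.24 (limma, adjusted p 0.00467), and the transcription factor Twist1 read -3.37 and -3.13 against -5.21 and -4.47, by -1.59 ± 0.24 (adjusted p 0.00975). Other mesenchymal genes went the opposite way: Loxl2, a matrix crosslinking enzyme, was higher by 0.96 ± 0.12 (adjusted p 0.00585), Tagln by 2.28 ± 0.37 (0.0115, but 0.0712 without control 4), and Acta2 by 2.93 ± 0.57 (0.02, but lost without control 1 or control 4, up to 0.114). In total 5 of 19 genes of that list were higher and 3 lower, or 1 to 5 and 2 to 4 across the alternatives. Over all names tested 10.3% were higher and 4.94% lower.

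Nr2f1, Etv1 and Hoxc6 are the transcription factors among those 10. Nr2f1, the orphan receptor COUP-TF1, read -0.23 and 0.30 against -2.52 and -3.68, by -3.14 ± 0.45 (limma, adjusted p 0.00811), Etv1 read -3.17 and -2.53 against -5.74 and -5.69, by -2.87 ± 0.28 (adjusted p 0.00294), and Hoxc6 read -2.46 and -1.79 against -4.51 and -5.12, by -2.69 ± 0.34 (adjusted p 0.00559). Foxa1, a pioneer factor of gland and gut epithelium, read -0.85 and -1.34 against -4.0 and -3.23, by -2.52 ± 0.30 (adjusted p 0.00474). Afp, the fetal liver protein, read -1.73 and -2.08 against -4.74 and -4.48, by -2.70 ± 0.18 (adjusted p 0.000695). Scrn1 fell by 3.36. Cxcl10 fell by 3.10 ± 0.58 (adjusted p 0.017), and its call was lost without control 3 or control 4 (up to 0.0849). Gm1070 completes the 10 largest falls, and its call was lost under 6 of the 14 alternatives, among them without control 1, 3 or 4 (highest adjusted p 0.121).

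Called receptors and metabolic genes were as follows. Lepr, the leptin receptor, read -2.06 and -2.12 against 0.23 and 0.55, by 2.48 ± 0.25 (limma, adjusted p 0.00294), Ptk7 was higher by 1.82 ± 0.23 (adjusted p 0.00557), Notch3 by 1.78 ± 0.27 (0.00951) and the activin subunit Inhbb by 1.14 ± 0.13 (0.0045). Of 31 receptor tyrosine kinases tested 5 were higher and 2 lower (1 to 8 and 0 to 4 across the alternatives), and of 31 cytokine receptors 4 higher and 1 lower (1 to 4 and 0 to 1). For glycolysis the count was 7 higher and 1 lower of 25, falling to 2 higher in the setting with the fewest; Slc16a3, which exports lactate, read 2.01 and 2.25 against 4.29 and 4.03, by 2.03 ± 0.19 (adjusted p 0.00255), and Aldoc was higher by 0.81 ± 0.13 (0.0108). Ass1, the arginine synthesis enzyme, was higher by 1.26 ± 0.16 (0.00541), and Bcat1, a transaminase of branched-chain amino acids, lower, with a difference of -2.13 ± 0.19 (0.00215). Crabp2, which carries retinoic acid, was higher by 1.39 (0.00474), as 1 of 5 of 12 xenobiotic and retinoid genes that were higher with 0 lower. In cell cycle genes 1 of 34 was higher and 1 lower (0 to 1 and 0 to 4 across the alternatives), and in cholesterol synthesis 1 of 21 higher and 0 lower, against 10.3% and 4.94% of all names.

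Some genes had signal in 1 set only, a list drawn up after values were seen. Of 22440 genes, 934 (4.16%) were well above background on both 0.6 arrays and on neither 0.2 array, and 54 (0.241%) the other way. For these the difference is a lower bound, the mean of the bright set over, for each array of the other set, the higher of the probe's own signal and the lowest signal flagged well above background. The bound reached 2-fold for 140 and 52 genes. The flag reached lower levels on the 0.6 arrays than on the 0.2 arrays, as given above, and its part in these counts was not tested. Mgmt, the DNA repair enzyme that removes alkyl groups from guanine, read -7.18 and -7.41 on the 0.2 arrays and 0.47 and 1.11 on the 0.6 arrays, at least 81.5-fold higher. Such genes were chosen for this pattern and were not tested. Its single probe lies at chr7:144319790-144319849 in mm9. Cdsn, corneodesmosin of the outermost cell junctions, was at least 11.7-fold higher, Ptprz1 19.8-fold, Ncam1 12.4-fold, Ly6g6e 12.3-fold, Igfbp2 10.1-fold and Il1f5, an interleukin receptor antagonist of skin, 9.01-fold, each as a lower bound.

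In the other direction Lin28b, which blocks maturation of let-7 microRNAs, read -2.77 and -2.81 on the 0.2 arrays and -8.43 and -8.20 on the 0.6 arrays, at least 11.6-fold higher on the 0.2 arrays. Tceal5 was at least 17.3-fold higher there. Vim read -3.32 and -3.30 against -8.77 and -8.52, at least 8.11-fold higher, on its only probe. The Hox genes Hoxa10 (at least 6.39-fold), Hoxc4 (5.85-fold), Hoxc9 (6.1-fold) and Hoxc13 (4.38-fold) were seen on the 0.2 arrays only, so that 4 of 9 genes of cluster C had signal on both 0.2 arrays and 1 on both 0.6 arrays.

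The microRNA arrays hybridised with each set were set beside these genes. They carry another microRNA in each set, so microRNA and set cannot be told apart in them. Of 52 genes with a bound of at least 2-fold on the 0.2 arrays, 18 (34.6%) were also well above background on both miR-193b arrays and on no miR-365a array, against 65 of all 22440 genes (0.29%); Vim was on both miR-193b arrays and 1 miR-365a array. Of the 140 genes seen on the 0.6 arrays, 89 (63.6%) were on both miR-365a and no miR-193b array, against 1137 of all genes (5.07%). Both groups of genes were picked by this same flag, and all genes include those with signal on every array or on none. The lowest level flagged was -5.19 and -5.76 on the miR-193b arrays and -6.49 and -6.69 on the miR-365a arrays. The part of that difference in these shares was not tested. Among genes with a current symbol, 418 were called higher with at least a 2-fold difference. Of these, 406 (97.1%) had a higher mean on the miR-365a arrays than on the miR-193b arrays. Of 131 called lower by as much, 127 (96.9%) had a lower mean there. The shares were 54.2% and 45.8% over all 12370 tested genes with a current symbol. The fit used these arrays for its spread only, not for the difference.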

How the data were processed

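Total RNA of 8 samples was labelled with Cy3 and hybridised to Agilent mouse expression arrays. The deposited intensity values are those of the scanner output, made by the authors with Agilent Feature Extraction 10.7.3.1, per the file headers; its processed signal is already background-corrected, per the file headers. A second deposited table holds log2 values; its normalization is not stated, limma (no version given) is named in the submitters' processing notes, and it served as an alternative. Its columns had medians of 7.04 to 7.05 and correlated with the matching scanner values.

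From the processed signal, outlier spots were left out, log2 values were centred on the array's 75th percentile over 43020 gene spots, and a probe's replicate spots were then combined as their mean (399 probes had 10 spots). A probe counted as well above background where at least 0.5 of its spots carried the flag. Probes were named by accession (27508), symbol (3544) or synonym (404) through RefSeq, or kept the array's own name (7973). A gene was represented by its brightest probe over the 4 control arrays. Sequences are RefSeq's, build GRCm38.p6, while probe positions are those of the array design, mm9. No spot was saturated, and 52.8%, 54.0%, 59.7% and 58.9% of gene spots were well above background on controls 1 to 4.

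The sets were compared with limma 3.58.1 in R 4.3.3 (lmFit and eBayes on the means of 4 groups of 2 arrays); levels and tables used Python 3.11.15 with pandas 2.3.3 and numpy 2.4.6, and figures matplotlib 3.10.9. Tested on simulated data for this comparison with 15017 genes, the fit called 1.49%, 65.7% and 97% of genes changed by 0.5, 1 and 2 on the log2 scale, with 8 false calls. Only 67, 67 and 66 genes were changed by these sizes, and all others were set equal between the sets. In the data 15.2% of names were called. The adjustment depends on the share of genes that differ, so these percentages do not give the sensitivity of the real comparison. Genes were named by rule: the 5 markers, the 30 highest signals, per list up to 6 highest and the first 6 without signal, the 10 largest rises and falls and up to 4 called members of lists with at least 3, and the 10 genes with the largest spread within a set; further genes are marked where they appear. The members and lists were chosen with earlier results of these data known. Alternatives covered the detection flag, probe choice, centring, normalization (quantile, and normexp with an offset of 50), the filter, the variance model, the slide as a random block and each array left out. The microRNA contrasts were not analysed here, and values of a few single genes are not reported here.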

Additional observations from a re-analysis of the deposited data

Results flagged for a closer look

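For 12 of 355 genes (3.38%) named in the text or fixed by the rule, 1 of the 4 control arrays lay apart from the other 3 by a share of the whole range above Dixon's 95% critical value. For 4 values drawn from 1 normal distribution, chance alone gives about 1 in 20 such groups. The control arrays came as 2 sets that differed, so the share flagged cannot be read against that rate. Control 4 was the highest for Cd44 (3.72), Epgn (1.66), Acvr1 (2.11) and Cd74 (-2.43). Control 2 was the highest for Asns (5.67) and Hoxa3 (0.11) and the lowest for Msmo1 (3.99). Control 1 was the lowest for Sparc (6.39), Igf2r (0.40), Nod2 (-2.32), Rpl29 (7.99) and the predicted gene Gm8580 (7.74). For Rpl29 the gap was 0.20, while for Epgn it was 1.07 and for Cd74 1.05.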

How the results depend on the processing

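The 12380 genes well above background on all 4 control arrays became 14355 with the more lenient detection flag and 10692 when every probe of a gene had to pass, an alternative added after seeing the data; leaving out 1 array gave 12396 to 12763. The median percentile of the 5 markers, 96.7 (SD 0.318, n = 4 arrays), rose to 97.7 with the median over probes, under which 1332 of 12380 genes moved by more than 10 points, and lay between 96.7 and 96.9 with 1 array left out. The count of 2286 names called between the sets was 830 with the 4 control arrays alone (608 higher, 222 lower), 1023 without a filter on dim probes (781 and 242) and 1221 with the slide as a random block (882 and 339; correlation 0.257). Median centring gave 938 higher and 1250 lower, and the lower count was 1247 with normexp and 1145 with the deposited values. Leaving out 1 array gave 380 to 1742 names, 263 to 1246 higher and 117 to 496 lower. Of the differences for single genes 1418 stayed on their side of the threshold, 724 lost it and 0 reversed; the cause was not tested. No paired analysis was possible because the labels give no replicate numbers. With 2 arrays in a set, a missed call does not show that levels were alike, and a gene without signal may be expressed below the reach of its probe.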

Other observations

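The 10 genes with the largest spread between the 2 arrays of a set included genes known to respond to interferon. Oas1a, which makes the 2-5A activator of RNase L, read -3.34 on control 1 and 1.78 on control 2, and -1.23 on control 3 and -0.22 on control 4. Rtp4, an interferon-induced chaperone, read -3.76 and 2.26 and then -5.24 and -2.04, a mean difference within sets of 4.61. Usp18, the protease that removes ISG15, read -4.12 and 0.02 and then -4.73 and -2.94. The others were Oasl2, Apol9a, Apol9b, Zbp1, Gbp3, Ifi27l2b and the predicted gene Gm9706; Oas1a, Oasl2, Rtp4, Usp18, Zbp1 and Gbp3 are known as interferon-induced genes. In each of the 10, control 2 lay above control 1 and control 4 above control 3. Whether the arrays of a set were transfected or harvested apart is not stated in the labels, and the order of the arrays in these genes was not tested.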
